A study of Mus musculus with 150 samples.

Results

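Lungs of CD-1 and wild-type C57BL/6 (WT) mice that had both inhaled styrene for 26 weeks were compared gene by gene. The 10 arrays, 5 of CD-1 and 5 of WT mice, were taken by their labels of strain, dose and week from the 150 arrays of the series, 1 array per mouse. CD-1 mice are an outbred stock, in which animals differ genetically, and the WT mice carried the intact genotype of the inbred C57BL/6 strain. All 10 animals were adult males from one supplier, breathed 120 ppm styrene in daily sessions of 6 h, 5 per week, and were killed on the morning after the last exposure. Whole lung was used, so a gene's level mixes cell numbers with RNA per cell, and fewer cells of a type cannot be told apart from less RNA per cell. No WT mice kept in air for 26 weeks were analysed here, so a difference of strain and a difference of styrene response cannot be told apart in this comparison.

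Further groups served to place the values. They were CD-1 mice at 120 ppm for 52 weeks (n = 3), CD-1 mice in air for 26 weeks (n = 5) and for 52 weeks (n = 4), WT mice at 120 ppm and in air for 52 weeks (n = 5 each), and 2 engineered C57BL/6 lines at 26 weeks. The KO line lacks CYP2F2 (4 styrene and 5 air mice), and the TG line lacks CYP2F2 too and carries a transgene labelled 2F1, SA13, 2B6 (5 styrene and 4 air mice).

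Styrene is an aromatic solvent that P450 enzymes of the lung, above all those of club cells in the small airways, oxidise. Some of the products are reactive and are cleared by glutathione transferases and epoxide hydrolases. Long-term inhalation is known to cause lung tumours in CD-1 mice. Inbred C57BL/6 mice are also known to carry deletions or sequence variants in several immune genes. An array probe that spans a variant can give less signal without less RNA, and the genotype of the animals was not measured here.

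All values are log2 intensities, so a difference of 1 is a doubling, and the values of different genes are not comparable as levels. Fits were made with limma over all groups with a term for array plate 2, adjusted p-values cover all 15695 genes tested, and a gene is called when its adjusted p is under 0.05. One of the CD-1 arrays, replicate 2, lay on plate 2 and the other 9 on plate 1, so a fitted difference can depart slightly from the difference of the printed means. CD-1 replicate 2 also stood apart, with a root mean square deviation from its group mean of 0.403, against 0.214 to 0.278 in the other CD-1 arrays and 0.145 to 0.203 in the WT arrays. CD-1 replicate 1 had a mean of 7.92 over 20 heart muscle markers, against 5.23 to 6.32 in the other CD-1 animals and 5.32 to 6.23 in WT animals, and a mean of 7.26 over 15 adipose markers, against 5.75 to 5.96 in the other CD-1 animals and 5.45 to 6.83 in WT animals. Lung epithelial markers were bright in both groups, with means over 18 alveolar type 2 markers of 9.97 to 10.3 in CD-1 and 10.4 in WT animals. Results that rest on CD-1 replicates 1 or 2 are given without them.

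CD-1 lungs differed from WT lungs in 872 of the 15695 genes (5.56%), 278 of them higher (1.77%) and 594 lower (3.78%) in CD-1. The values of the 5 CD-1 and 5 WT animals did not overlap in 555 of the called genes, and in 908 of all genes tested (5.79%). Differences of at least 2-fold were found for 73 higher and 127 lower genes, and the median size of a called difference was 0.66. Over all genes the median difference was -0.02. Without CD-1 replicates 1 and 2 the calls numbered 691, with 216 higher and 475 lower. Without CD-1 replicate 2, the plate 2 array, they numbered 919, with 307 higher and 612 lower. A fit of the plate 1 arrays of these 2 groups alone, which leaves out that array and all other groups together, gave 1512, with 711 higher and 801 lower. With that array kept and only the other groups left out, the calls numbered 657, with 236 higher and 421 lower.

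The highest difference was that of Serpina1b, one of the alpha-1-antitrypsin genes, which encode inhibitors of neutrophil elastase. It had 8.02, 9.16, 8.43, 7.44 and 9.03 in the CD-1 animals, against 2.83, 2.73, 2.97, 3.00 and 2.73 in the WT animals. Every CD-1 animal lay far above every WT animal, and the WT mean lay under the level at which genes were dropped as dim, so the difference was at least 40.0-fold (adjusted p = 3.97e-18). A second probe set of the gene differed by 5.21. The alpha-1-antitrypsin genes are near copies of each other, so the signal may come from more than 1 of them.

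Both fructose-bisphosphatases, which catalyse a late step of gluconeogenesis, were higher in CD-1. Fbp2, the muscle form, had 7.56, 8.35, 7.88, 8.42 and 8.51 in CD-1 animals, against 3.65, 4.11, 3.89, 3.84 and 4.02 in WT animals, an 18.3-fold difference (adjusted p = 4.69e-22). Fbp1, the liver form, had 6.31, 7.08, 6.48, 6.43 and 7.04 in CD-1 animals, against 3.45, 3.39, 3.40, 3.27 and 3.14 in WT animals, a 9.38-fold difference (adjusted p = 1.18e-05). For both genes the lowest CD-1 animal lay above the highest WT animal.

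Ang5, a ribonuclease of the angiogenin family, divided the CD-1 animals. It had 7.65, 7.29, 2.35, 8.74 and 9.24 in CD-1 animals, against 2.62, 2.88, 2.46, 2.37 and 2.74 in WT animals. CD-1 replicate 3 lay below all WT animals and the other 4 CD-1 animals far above them. The group difference was at least 15.6-fold (adjusted p = 5.53e-05), and Ang5 was the only one of the 30 genes with the highest or lowest differences whose groups overlapped.

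Tmem87a, a membrane protein of the Golgi, was 16.6-fold higher (adjusted p = 1.57e-52), at 6.32 in CD-1 replicate 2 and 7.45 to 7.59 in the other CD-1 animals, against 3.16 to 3.39 in WT animals. Pik3ap1, an adaptor between the B cell receptor and PI3 kinase, was 9.40-fold higher, at 8.66 to 9.57 in CD-1 and 5.74 to 6.07 in WT animals. Its other probe set differed by -0.12 (unadjusted p = 0.522), so the gene's difference rests on 1 probe set.

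Of the 15 highest genes the others reported here were Abhd1 (7.76-fold), Tshb (6.66-fold), which encodes the beta chain of thyrotropin, Hsd3b2 (at least 4.92-fold), a steroid dehydrogenase, Elobl (at least 4.70-fold), Cntnap2 (at least 3.75-fold), a neurexin relative, H2-Ea, Efhd1 (4.35-fold) and Ctse, the aspartic protease cathepsin E. The other probe set of Cntnap2 differed by -0.05. It was dim in both groups (means of 2.60 in CD-1 and 2.63 in WT animals), so it could hardly show a difference. Ctse was 4.32-fold higher, at 4.92, 7.17, 6.54, 7.62 and 6.89 in CD-1 animals and 4.19 to 4.77 in WT animals (adjusted p = 0.0127). Its call was lost without CD-1 replicate 4 (adjusted p = 0.0715).

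**Figure D1:**
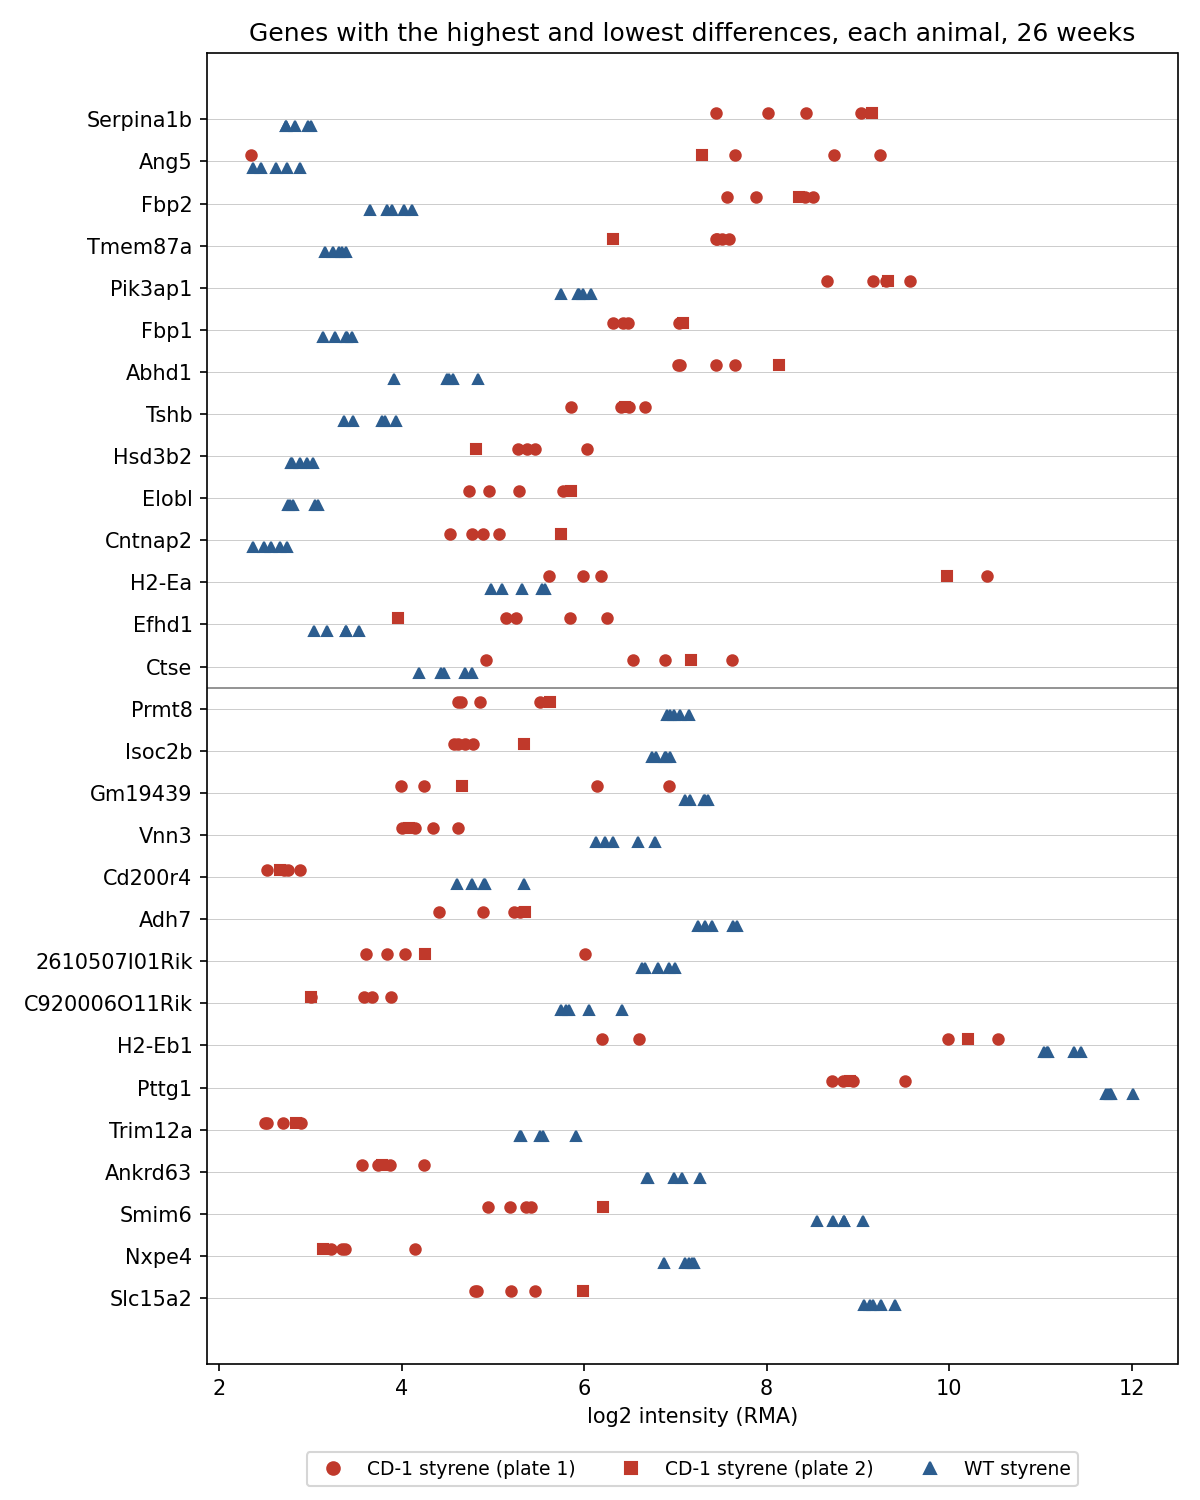
Of the genes with the 15 highest and the 15 lowest called differences, 14 and 15 are shown by animal, with log2 intensity on the horizontal axis, CD-1 animals in red (square for the array on plate 2) and WT animals in blue. In all genes shown but Ang5 the 2 groups do not overlap, and for Ang5 1 CD-1 animal lies at 2.35, below the WT animals.

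Slc15a2, the peptide transporter PEPT2 of the apical lung epithelium, had the lowest difference. It had 5.46, 5.99, 4.80, 5.20 and 4.82 in CD-1 animals, against 9.41, 9.07, 9.17, 9.25 and 9.13 in WT animals, a 17.0-fold difference (adjusted p = 1.54e-26). Its probe sets disagreed, since a second one was lower by 3.32 and the third differed by 0.77 in the opposite direction (unadjusted p = 0.00126). The direction for this gene therefore depends on the probe set read.

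Pttg1 encodes securin, a protein that prevents sister chromatids from separating before anaphase. It had 9.52, 8.91, 8.84, 8.95 and 8.72 in CD-1 animals, against 12.02, 11.74, 11.78, 11.72 and 11.76 in WT animals, so that all CD-1 animals lay below all WT animals (7.00-fold lower, adjusted p = 1.04e-08). Both of its other probe sets were lower too, by 1.46 and 3.06. Air-exposed KO mice at 26 weeks had 9.09, 9.08, 11.16, 8.68 and 8.81, and styrene-exposed KO mice had 11.29, 11.13, 9.06 and 11.04. KO animals thus lay either at 8.68 to 9.09, near the CD-1 animals, or at 11.04 to 11.29, below the lowest WT animal (11.72).

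Adh7, the class IV alcohol dehydrogenase that also oxidises retinol, was 5.54-fold lower, at 4.41 to 5.35 in CD-1 and 7.25 to 7.67 in WT animals (adjusted p = 9.97e-13). Vnn3, of the pantetheinase family, was 4.70-fold lower, and Prmt8, an arginine methyltransferase best known from brain, was 4.21-fold lower. Cd200r4, of the CD200 receptor family of myeloid cells, was at least 3.51-fold lower, at 2.52 to 2.88 in CD-1 and 4.60 to 5.34 in WT animals. Trim12a, of the tripartite motif family, was at least 5.37-fold lower, and its other probe set differed by 0.09. That probe set had means of 3.13 in CD-1 and 3.04 in WT animals, near the level at which genes were dropped as dim.

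The rest of the 15 lowest genes were Nxpe4 (12.5-fold), Smim6 (10.7-fold), Ankrd63 (9.02-fold), H2-Eb1, C920006O11Rik (5.86-fold), 2610507I01Rik (5.84-fold), Gm19439 (4.37-fold) and Isoc2b (4.23-fold). Within the CD-1 group Gm19439 ranged widely, at 6.14, 4.66, 6.93, 4.24 and 3.99, against 7.10 to 7.36 in WT animals. In 2610507I01Rik 1 CD-1 animal, replicate 5, lay at 6.01 and the others at 3.61 to 4.25, against 6.63 to 7.00 in WT animals.

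MHC class II molecules, built from an alpha and a beta chain, present peptides to CD4+ T cells and are made by dendritic cells, B cells, macrophages and alveolar type 2 cells. Their genes are transcribed through promoter boxes that include an inverted CCAAT sequence bound by NF-Y. Of 12 class II genes tested, each read from its brightest probe set, 1 was higher and 2 were lower in CD-1 (5.56% of all genes were called). The median difference was -0.11, against -0.02 over all genes. The lower genes were H2-Eb1 and H2-Aa, and the probe sets of H2-Aa disagreed, as given below. The promoters of H2-Eb1 and H2-Aa are shown, because the probe sets read for these genes were both low in the same CD-1 animals. The other 2 probe sets of H2-Aa did not follow that pattern. The sequences are from RefSeq (GRCm38.p6, 250 bases before to 50 after the start), as the C57BL/6J reference has them, with each CCAAT or ATTGG in capitals. H2-Eb1 lies at chr17:34305617-34305916 on the plus strand and H2-Aa at chr17:34287774-34288073 on the minus strand.
H2-Eb1: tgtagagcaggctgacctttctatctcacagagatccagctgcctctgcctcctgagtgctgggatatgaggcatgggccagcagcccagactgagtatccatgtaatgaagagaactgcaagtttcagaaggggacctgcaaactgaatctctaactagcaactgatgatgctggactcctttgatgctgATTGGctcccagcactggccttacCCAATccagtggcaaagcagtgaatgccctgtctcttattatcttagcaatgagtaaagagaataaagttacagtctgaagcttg
H2-Aa: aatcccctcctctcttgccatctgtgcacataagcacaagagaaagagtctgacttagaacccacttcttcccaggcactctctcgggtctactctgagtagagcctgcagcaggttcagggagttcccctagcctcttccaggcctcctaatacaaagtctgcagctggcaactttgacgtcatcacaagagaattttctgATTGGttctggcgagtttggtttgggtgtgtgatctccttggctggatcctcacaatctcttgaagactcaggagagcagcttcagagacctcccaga
The H2-Eb1 window holds 2 matches and the H2-Aa window 1, and 37.4% of 32851 promoters of this length hold at least 1 on either strand. The match describes these letters of the reference and was not examined in CD-1 mice.

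H2-Ea, the alpha chain of the class II molecule I-E, is known to be silent in C57BL/6 mice through a deletion at its start. It had 5.61, 9.98, 5.99, 10.42 and 6.18 in CD-1 animals, against 4.98, 5.57, 5.32, 5.10 and 5.54 in WT animals. CD-1 replicates 2 and 4 were bright, while the other 3 CD-1 animals lay just above the WT animals. The difference was 4.68-fold (log2 2.23, SE 0.698, adjusted p = 0.0364). The second probe set showed the same 2 animals at 10.67 and 11.25, the other CD-1 animals at 3.90 to 4.62, and WT animals at 2.78 to 3.07. The call was lost without CD-1 replicate 2 (log2 1.75, adjusted p = 0.135), without CD-1 replicate 4 (1.43, adjusted p = 0.334) and without any single WT animal (adjusted p = 0.051 to 0.0793). It was also lost in fits of only the arrays compared (adjusted p = 0.188) and of their plate 1 arrays (0.18).

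H2-Eb1, the beta chain of I-E, had 9.99, 10.21, 6.20, 10.54 and 6.60 in CD-1 animals, against 11.37, 11.08, 11.45, 11.04 and 11.07 in WT animals. CD-1 replicates 3 and 5 were low and the other 3 lay closer to the WT animals, with no overlap between the groups. The difference was -2.71 (SE 0.555, adjusted p = 2.36e-04), and the call was lost in a fit of only the 10 arrays compared (log2 -2.49, adjusted p = 0.112).

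H2-Aa, the alpha chain of the molecule I-A, was low in the same 2 animals. It had 11.45, 11.30, 8.44, 11.56 and 8.57 in CD-1 animals, against 11.67, 11.64, 11.86, 11.83 and 12.01 in WT animals (log2 -1.67, SE 0.431, adjusted p = 0.00613). The call was lost without CD-1 replicate 3 (log2 -1.21, adjusted p = 0.125) and without CD-1 replicate 5 (-1.24, adjusted p = 0.0955). Fits of only the arrays compared (adjusted p = 0.212) and of their plate 1 arrays (0.0805) lost it too. The 3 probe sets of H2-Aa disagreed. A second was at 3.19 to 3.78 in CD-1 and 7.63 to 8.16 in WT animals, and the third was higher in all CD-1 animals, at 11.60 to 11.97, against 11.03 to 11.35 in WT animals, so no direction is given for the H2-Aa transcript. Cd74, the invariant chain that escorts class II molecules, had 10.04 to 10.55 in CD-1 and 10.21 to 10.64 in WT animals, with 1 probe set. H2-Ab1, the beta chain of I-A, had 10.44 to 10.91 in CD-1 and 10.19 to 10.55 in WT animals with its brightest probe set. Both of its other probe sets were higher in every CD-1 animal than in any WT animal. One had 9.04 to 10.20 in CD-1 and 8.23 to 8.66 in WT animals (log2 1.07, unadjusted p = 4.17e-04), and the other had 9.59 to 9.90 in CD-1 and 8.96 to 9.40 in WT animals (log2 0.53, unadjusted p = 0.012).

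The same kinds of values recurred among other CD-1 mice. In CD-1 mice in air for 26 weeks H2-Ea was 9.59, 10.68, 5.69, 6.70 and 5.69, and H2-Eb1 was 10.63, 10.25, 9.88, 6.51 and 10.03. In the KO and TG mice of 26 weeks, H2-Ea lay between 4.87 and 5.36 and H2-Eb1 between 11.08 and 11.64, whether they had inhaled styrene or air.

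**Figure D2:**
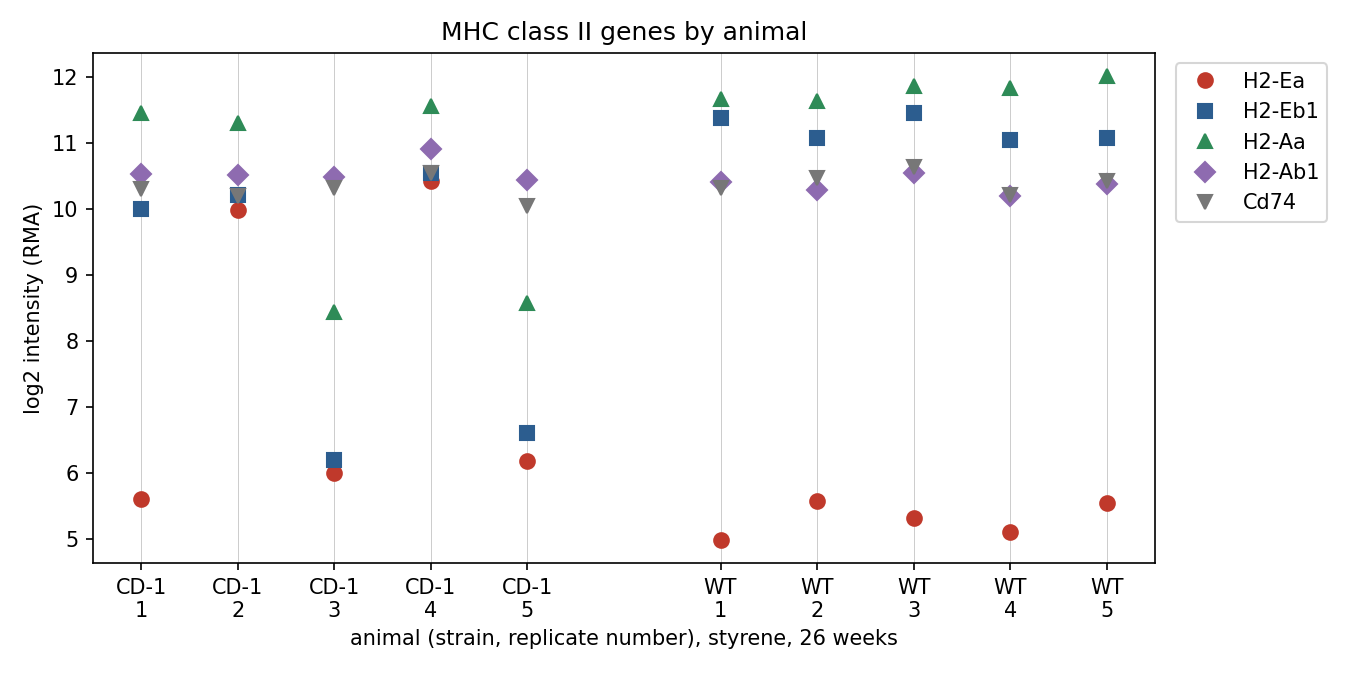
Log2 intensities of 5 class II genes are plotted for each of the 5 CD-1 and 5 WT animals, 1 symbol per gene. Each gene is read from its brightest probe set, and the other probe sets of H2-Aa do not follow the one shown. H2-Ea lies near 10 in CD-1 replicates 2 and 4 only, and H2-Eb1 and H2-Aa are low in CD-1 replicates 3 and 5. H2-Ab1 and Cd74 lie at 10.04 to 10.91 in all 10 animals.

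Serpind1, which encodes the thrombin inhibitor heparin cofactor II, was high in both exposed groups. It had 7.16, 8.04, 7.03, 7.10 and 7.34 in exposed CD-1 animals, against 6.48, 6.56, 6.27, 6.11 and 6.43 in exposed WT animals. The groups did not overlap, and the difference of 0.96 (SE 0.259) was a 1.95-fold higher level in CD-1 (adjusted p = 0.0101). Without CD-1 replicate 2, its highest animal, the difference was 0.79 (adjusted p = 0.0543), and without replicates 1 and 2 it was 0.79 as well (adjusted p = 0.109). CD-1 mice in air for 26 weeks had 4.62, 4.33, 4.21, 4.20 and 4.69, so that styrene minus air was 2.92 in CD-1 (adjusted p = 1.90e-16). In the KO line exposed and air mice lay at 4.43 to 4.79 and 4.23 to 5.29, and in the TG line at 4.58 to 4.95 and 4.44 to 4.87, so the exposed CD-1 and WT animals were the only ones above 6 at 26 weeks.

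Kng1, kininogen, the plasma precursor of bradykinin, had 4.01, 5.10, 6.19, 4.87 and 3.07 in exposed CD-1 animals, against 3.24, 3.28, 2.64, 3.31 and 2.90 in exposed WT animals. CD-1 replicate 5 lay within the WT range and the other 4 above it, at least 2.71-fold higher as a group (adjusted p = 4.36e-04). The call was lost in a fit of only the arrays compared (log2 1.57, adjusted p = 0.0782) and of their plate 1 arrays (1.46, adjusted p = 0.0728). CD-1 air mice of 26 weeks lay at 2.30 to 2.51, and styrene minus air was 2.25 in CD-1 (adjusted p = 1.53e-06).

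Azgp1, zinc-alpha-2-glycoprotein, ran the other way between the strains. It had 7.89, 7.71, 6.63, 5.75 and 6.82 in exposed CD-1 animals, against 8.35, 8.32, 8.35, 8.13 and 8.21 in exposed WT animals, 2.54-fold lower with no overlap (adjusted p = 0.00577). Without CD-1 replicate 4 the call was lost (log2 -1.02, adjusted p = 0.0896). CD-1 air mice had 4.22, 4.18, 6.24, 4.44 and 5.99, so that styrene minus air was 1.92 in CD-1 (adjusted p = 1.48e-04) even though exposed CD-1 mice stayed below exposed WT mice.

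Cyp1a1, the P450 induced through the aryl hydrocarbon receptor, had 6.50, 7.63, 5.99, 5.72 and 5.48 in exposed CD-1 animals, against 8.24, 8.08, 7.99, 7.24 and 7.24 in exposed WT animals. Only CD-1 replicate 2 reached into the WT range, and the gene was 2.93-fold lower in CD-1 (adjusted p = 0.00684). Cyp1a1 was lower in CD-1 without styrene too, at 4.06 to 5.08 in CD-1 and 6.52 to 7.50 in WT air mice of 52 weeks. KO and TG mice of 26 weeks had 6.07 to 8.10 with styrene and 5.39 to 6.97 in air. Styrene minus air in CD-1 was 1.05, which did not pass the test (adjusted p = 0.368). The CD-1 styrene group enters both this comparison and the comparison with CD-1 air mice, so their values are not independent.

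**Figure D3:**
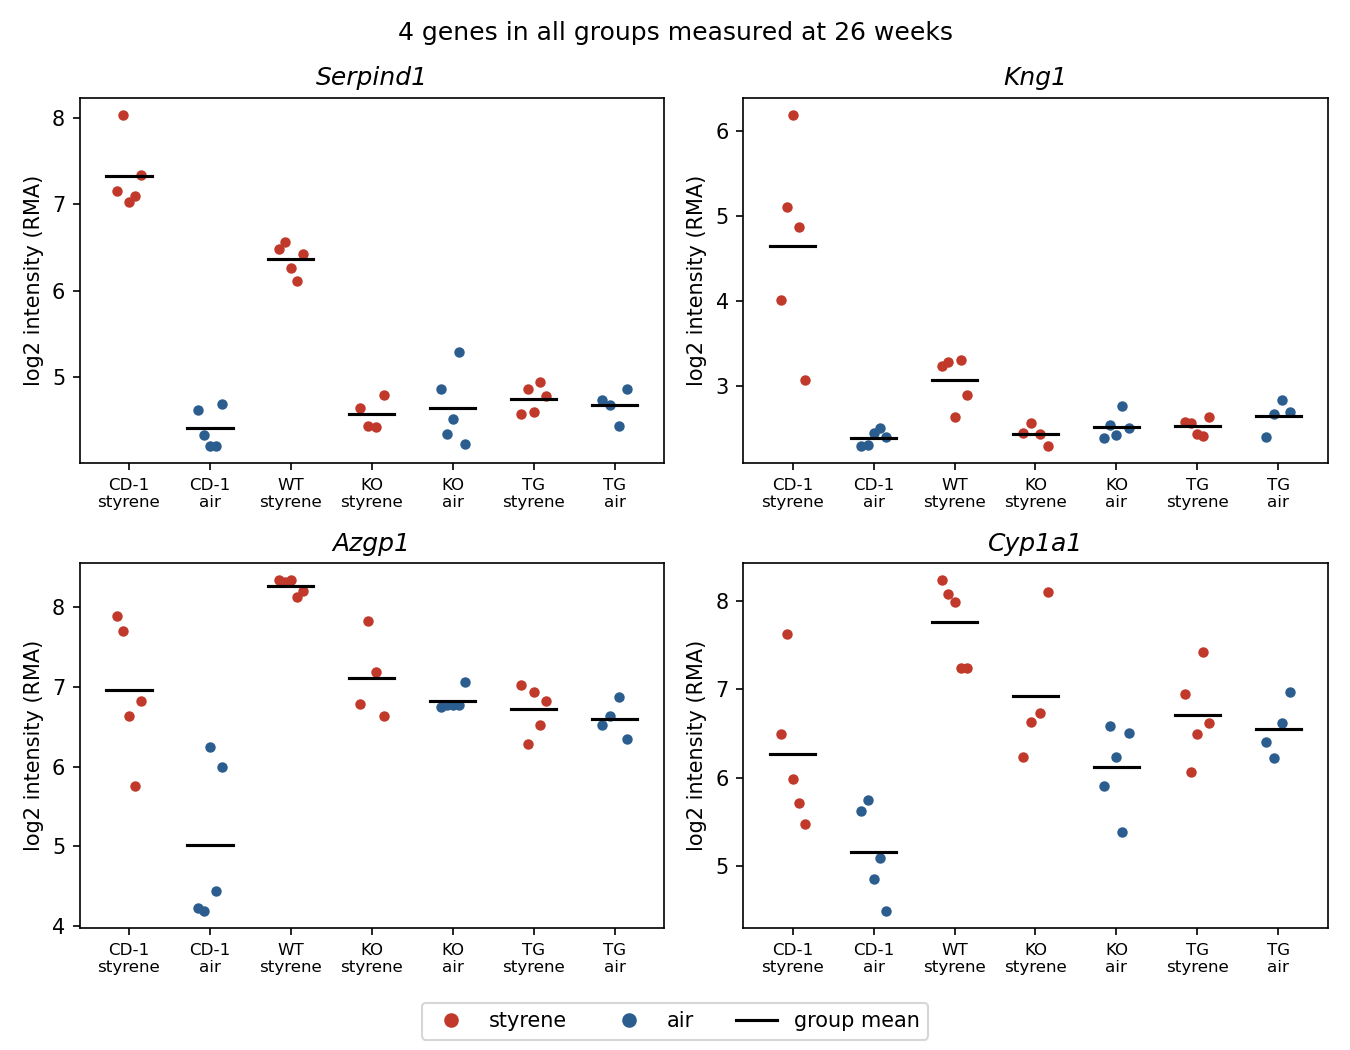
Log2 intensities of Serpind1, Kng1, Azgp1 and Cyp1a1 are shown for each animal of the 7 groups measured at 26 weeks, styrene in red and air in blue, with a black line at each group mean. Serpind1 lies above 6 in exposed CD-1 and WT animals only, and Azgp1 is lower in CD-1 than in WT exposed animals but higher than in CD-1 air animals.

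The counts of called list members below stand against 1.77% higher and 3.78% lower over all genes tested. Among the 21 P450s and epoxide hydrolases tested, 1 was higher and 3 were lower in CD-1, with a median difference of -0.03. Cyp2f2, the club cell P450 that oxidises styrene, had 13.18 to 13.54 in CD-1 and 13.17 to 13.33 in WT animals (log2 0.04, adjusted p = 0.901), against 12.02 to 12.55 in KO animals of 26 weeks. The probe set thus stayed bright in the line that lacks CYP2F2, and the highest value of any probe set was 14. Near-equal values in CD-1 and WT may therefore hide a difference in Cyp2f2 RNA. Cyp2d22 was 1.78-fold higher (8.05 to 8.50 in CD-1 and 7.36 to 7.68 in WT, adjusted p = 6.72e-04). Cyp3a13 was 2.02-fold lower (3.65 to 4.78 in CD-1 and 4.87 to 5.65 in WT, adjusted p = 0.00559). The third lower gene beside Cyp1a1 and Cyp3a13 was Cyp51, which makes sterols and is described with that pathway.

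Glutathione transferases conjugate reactive products to glutathione. Of 20 tested, 2 were higher and 1 was lower, with a median of 0.10. Gstm6 was 1.80-fold lower, at 4.58 to 5.29 in CD-1 and 5.36 to 6.11 in WT animals (adjusted p = 4.23e-04). The higher calls were small and were lost without single animals. Gstp1, at 12.15 to 12.49 in CD-1 and 11.96 to 12.08 in WT animals, was 1.23-fold higher (adjusted p = 0.0334), and its call was lost without CD-1 replicate 2 (adjusted p = 0.101), without CD-1 replicate 5 (0.144) and without WT replicate 1, 2, 3 or 4 (0.0561 to 0.0764). Gstm3 was 1.49-fold higher (adjusted p = 0.0131), and the call was lost without CD-1 replicate 1 (0.0598), CD-1 replicate 2 (0.0775) or WT replicate 4 (0.113). Both calls were also lost in a fit of only the arrays compared (0.135 for Gstp1 and 0.134 for Gstm3) and of their plate 1 arrays (0.102 and 0.12). Of 26 targets of the stress-response factor NRF2, 1 was called, Gclc, the catalytic subunit that begins glutathione synthesis. Gclc was 1.65-fold lower, at 8.67, 8.97, 9.50, 9.53 and 9.37 in CD-1 animals and 9.76 to 10.18 in WT animals (adjusted p = 0.00232). Without CD-1 replicates 1 and 2, its lowest animals, the difference was -0.44 (adjusted p = 0.211).

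Of 29 enzymes and regulators of cholesterol and fatty acid synthesis, 6 were lower and 1 was higher, and the median difference was -0.24. Over all genes tested lower calls also outnumbered higher ones, at 3.78% and 1.77%, and the median was -0.02. Sqle, squalene epoxidase, was 1.57-fold lower, at 7.24 to 7.80 in CD-1 and 7.86 to 8.38 in WT animals (adjusted p = 0.00503). Srebf2, the transcription factor that drives sterol synthesis genes, was 1.42-fold lower, at 6.69 to 7.28 in CD-1 and 7.07 to 7.64 in WT animals (adjusted p = 0.0011), a call lost in a fit of only the arrays compared (log2 -0.48, adjusted p = 0.0818). Hsd17b7 and Fdps were lower by 1.59-fold and 1.62-fold, and the Fdps call was lost without CD-1 replicate 3 (adjusted p = 0.0845). Cyp51, lanosterol demethylase, was 1.75-fold lower (adjusted p = 0.0351), and leaving out any of CD-1 replicates 3, 4 and 5 or WT replicates 1 to 4 lost its call (adjusted p = 0.0582 to 0.119). Sc5d (-0.59) and the elongase Elovl6 (0.76) complete the 7 calls, and both were named after their values were seen. Without CD-1 replicates 1 and 2, 9 genes of the list were lower and 0 higher.

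Alveolar type 2 cells make surfactant, and of 18 of their markers 5 were lower in CD-1 and 0 higher, where 3.78% of all genes were lower and 1.77% higher. The median was -0.19, and 1 of 18 differences was positive, against 45.9% of all genes. The mean over the list was 9.97 to 10.3 in CD-1 animals and 10.4 in each WT animal at this rounding. Sftpd, surfactant protein D, had 12.21, 12.45, 12.18, 12.19 and 12.06 in CD-1 animals, against 12.57, 12.65, 12.67, 12.63 and 12.63 in WT animals, and was 1.37-fold lower with no overlap (adjusted p = 5.49e-04). Napsa, the napsin A protease that processes surfactant protein B, was 1.70-fold lower, at 6.48 to 6.72 in CD-1 and 7.15 to 7.72 in WT animals (adjusted p = 0.00353). Without CD-1 replicates 1 and 2 it missed the threshold (adjusted p = 0.055).

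Etv5, a transcription factor that maintains type 2 cells, was 1.43-fold lower (adjusted p = 0.0159), a call lost without CD-1 replicate 3 (0.161) or WT replicate 4 (0.0567) and with only the arrays compared (0.0624). Chil1, a chitinase-like protein, was 11.82, 9.30, 10.78, 8.78 and 11.04 in CD-1 animals, against 11.41 to 11.62 in WT animals. It was 2.26-fold lower (adjusted p = 0.0103), and the call was lost without CD-1 replicate 2 (log2 -0.94, adjusted p = 0.062) and without CD-1 replicate 4 (-0.73, adjusted p = 0.226). Fits of only the arrays compared (0.215) and of their plate 1 arrays (0.212) also lost the Chil1 call. Lpcat1, an enzyme of surfactant lipid synthesis, was the fifth (-0.33) and was named after its value was seen. The count was 6 lower without CD-1 replicate 1, 3 without replicate 2 and 5 without both.

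Alveolar macrophages clear surfactant and inhaled particles. Of 20 of their markers 3 were higher and 0 lower, with a median of 0.43. The count was 3 higher without CD-1 replicate 1, 5 without replicate 2 and 3 without both. Siglecf, a sialic acid receptor that identifies these cells in mice, had 7.40, 7.01, 6.83, 7.65 and 7.37 in CD-1 animals, against 6.30, 6.21, 6.45, 6.75 and 6.56 in WT animals, 1.72-fold higher (adjusted p = 0.00602). Krt79, a keratin expressed by mouse alveolar macrophages, was 2.22-fold higher, at 7.45 to 8.96 in CD-1 and 6.74 to 7.40 in WT animals (adjusted p = 0.00182). Il18, which encodes the cytokine interleukin 18, was 1.62-fold higher (adjusted p = 0.00954), a call lost without CD-1 replicate 4 (0.0824). The mean over the 20 markers was 7.74 to 8.35 in CD-1 and 7.56 to 7.97 in WT animals, so the list as a whole overlapped.

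Genes that encode plasma proteins numbered 39, of which 4 were higher and 2 lower, with a median of 0.12. Apoc1, an apolipoprotein, was 1.72-fold higher (9.41 to 10.35 in CD-1 and 8.84 to 9.23 in WT, adjusted p = 0.00886), and was not called without CD-1 replicate 5 (0.0627) or without CD-1 replicates 1 and 2 (0.069). Serpind1, Kng1 and Azgp1 were described above, and Itih2 (0.63) and Vtn (-0.88) were named after their values were seen. Without CD-1 replicates 1 and 2, 1 plasma protein gene was higher and 1 lower. Of 24 serpins, 3 were higher and 2 lower, and the same omission left 1 of each. Serpinf1, an inhibitor of vessel growth, was 1.74-fold higher, at 8.51 to 9.29 in CD-1 and 7.98 to 8.19 in WT animals (adjusted p = 0.007), or 0.0563 without CD-1 replicates 1 and 2. Serpina3n, an acute-phase protease inhibitor, was 1.62-fold lower, at 7.53 to 8.04 in CD-1 and 8.15 to 8.44 in WT animals (adjusted p = 0.00769). Its call was lost without the plate 2 term (log2 -0.56, adjusted p = 0.0647), a term that bears on 1 of the 5 CD-1 arrays.

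A list of 28 genes in which C57BL/6 mice are known to carry variants held 2 higher and 4 lower genes, with a median of 0.11. Fcgr2b, the inhibitory IgG receptor of B cells and macrophages, was 2.42-fold lower, at 6.59 to 7.91 in CD-1 and 8.32 to 8.60 in WT animals (adjusted p = 0.00777). That call was lost without CD-1 replicate 3 (log2 -1.11, adjusted p = 0.0544) and without CD-1 replicates 1 and 2 (-1.09, adjusted p = 0.0854). Of 6 members of the interferon-inducible p200 family, which sense or bind DNA, 1 was higher and 2 lower. Ifi202b was at least 2.19-fold higher, at 3.64 to 5.18 in CD-1 and 2.85 to 3.32 in WT animals (adjusted p = 0.0202), a call lost without CD-1 replicate 1 (0.0921), CD-1 replicate 4 (0.166) or WT replicate 2 (0.0556). Ifi209 and Ifi213 were lower by 2.62-fold and 2.02-fold. Their calls were lost without WT replicate 1 (adjusted p = 0.09 and 0.0576), and that of Ifi213 also without CD-1 replicate 3 (0.0689). When probe sets of a gene were averaged, both calls were lost (0.176 for Ifi209 and 0.0554 for Ifi213). The second probe set of Ifi209 had means of 2.89 in CD-1 and 3.11 in WT animals, and that of Ifi213 2.69 and 2.64. Those means lie near or under the level at which genes were dropped as dim. Averaging in a dim probe set makes a difference smaller. These families hold near copies, which probes may not separate.

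Of 29 T and NK cell markers 1 was higher and 1 lower. Ncr1, the activating receptor NKp46, was 3.01-fold higher, at 5.01 to 6.53 in CD-1 and 3.88 to 4.38 in WT animals (adjusted p = 1.69e-04), and the lower gene was Klra8 (-0.62), a Ly49 receptor near the dim end. Of 38 type I interferon response genes 1 was called, Usp18, which restrains interferon signalling, 1.91-fold lower (adjusted p = 4.99e-04). Of 11 platelet markers 2 were lower. Itgb3, the integrin beta chain of platelets, was 1.61-fold lower at 6.44 to 7.19 in CD-1 and 7.38 to 7.59 in WT animals (adjusted p = 0.00892). Its adjusted p was 0.0641 without CD-1 replicate 4, and 0.12 with the mean of its probe sets. The other probe set of Itgb3 had a mean of 3.49 in both groups. Treml1 was 2.00-fold lower (adjusted p = 0.0329), a call lost without CD-1 replicate 3 or 5 or WT replicate 1, 2 or 4 (0.0545 to 0.166).

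Airway markers were called at about the share of all genes. Of 21 club cell markers 1 was lower, Sftpd, which type 2 cells share, and of 21 ciliated cell markers 1 was lower, Tubb4b (1.22-fold), or 4.76% of either list, against 5.56% of all genes. Of 15 alveolar type 1 markers 1 was lower, Gprc5a, a receptor of the alveolar epithelium, at 8.79 to 9.87 in CD-1 and 9.86 to 10.19 in WT animals (1.77-fold, adjusted p = 1.77e-04). Upk1b, a uroplakin of mesothelium, was 2.35-fold lower, at 6.96 to 8.08 in CD-1 and 8.49 to 9.07 in WT animals (adjusted p = 6.06e-05). Of 38 cell cycle genes 1 was higher (Rrm1) and 1 lower (Pttg1), of 19 carboxylesterases and hydrolases 1 was higher (Bche) and 1 lower (Ces1c), and of 21 monocyte and dendritic cell markers 1 was higher (Fcgr1) and 1 lower (Ccl17). Single calls were made among 25 endothelial markers (Aplnr, higher), 13 goblet cell markers (Tff2, lower) and 26 complement genes (Clu, lower), and those of Aplnr, Tff2, Bche, Ces1c, Fcgr1, Ccl17 and Tubb4b were lost without single animals. No member was called among 30 fibroblast and collagen genes, 11 smooth muscle, 14 neutrophil, 19 B cell, 11 erythroid, 18 MHC class I, 20 clock, 22 immediate-early, 22 heat shock, 6 basal cell, 20 heart muscle and 15 adipose genes. Heart muscle markers had a median of 0.75 without a call, with CD-1 replicate 1 the highest animal. That median was 0.32 without replicate 1, 0.91 with 1 higher call without replicate 2, and 0.50 without both. Over all genes, 661 were called without CD-1 replicate 1, with 199 higher and 462 lower.

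**Figure D4:**
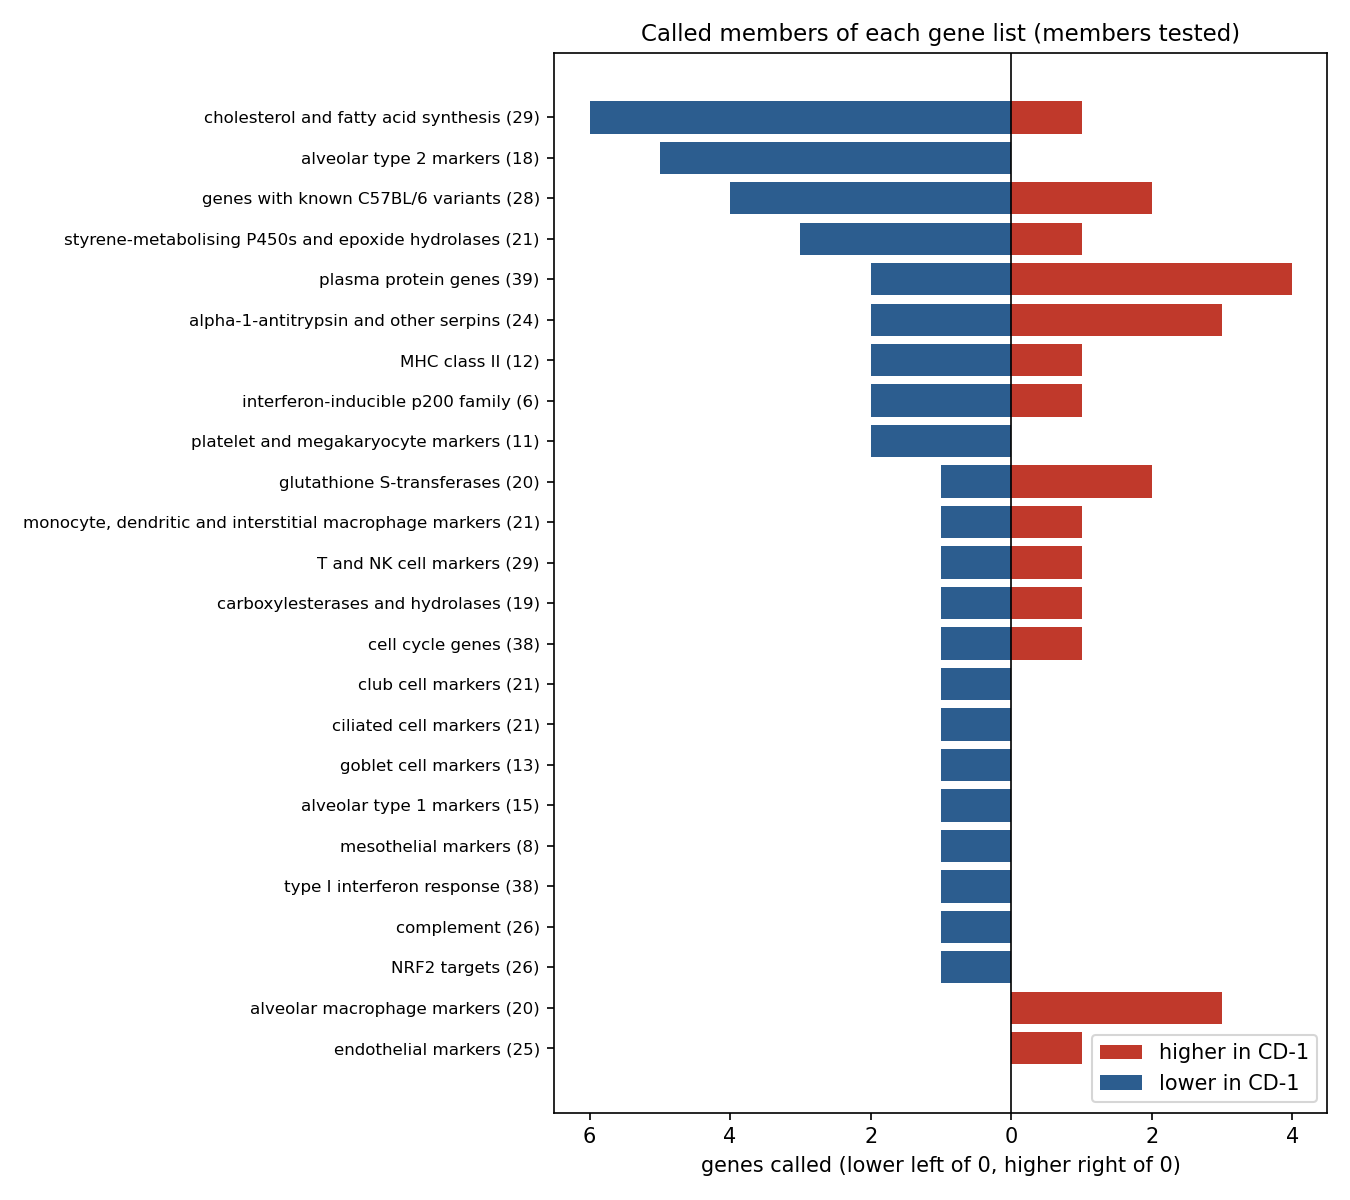
Bars give the number of called members of each gene list that has any, higher in CD-1 to the right of 0 and lower to the left, with the number tested in brackets. Cholesterol and fatty acid synthesis has 6 lower and 1 higher, alveolar type 2 markers 5 lower and alveolar macrophage markers 3 higher.

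Other pairs of groups that share no animal with the main comparison show which differences recur. CD-1 minus WT in air at 52 weeks called 935 genes (5.96%), CD-1 minus WT in styrene at 52 weeks 543 (3.46%) and CD-1 minus KO in air at 26 weeks 791 (5.04%). Of the 872 genes of the main comparison, 454 were called the same way in the first, which is 52.1% of them and 48.6% of that comparison's calls. The second held 375 (43.0% and 69.1%) and the third 408 (46.8% and 51.6%). No gene was called in the opposite direction in any of these, and 242 genes (27.8% of 872) were called the same way in all 3. All 3 also set CD-1 against C57BL/6 mice, but 2 of them at 52 weeks and the third against the KO line.

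Of the 15 highest genes 13 were called in all 3 (not H2-Ea or Ctse), and of the 15 lowest 12 (not Pttg1, H2-Eb1 or Gm19439). Serpina1b differed by 5.08, 5.33 and 5.45 in the 3 comparisons in the order given, and Slc15a2 by -4.10, -3.90 and -3.94. Pttg1 differed by -3.09 and -2.98 from WT but by -0.43 from KO mice (adjusted p = 0.712), in which 4 of 5 air animals had low values. Styrene minus air in CD-1 mice at 26 weeks called 102 genes (0.65%), with the exposed CD-1 arrays shared with the main comparison. For the 30 genes it lay between -0.97 and 0.86, and the smallest adjusted p was 0.0504, for Prmt8.

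**Figure D5:**
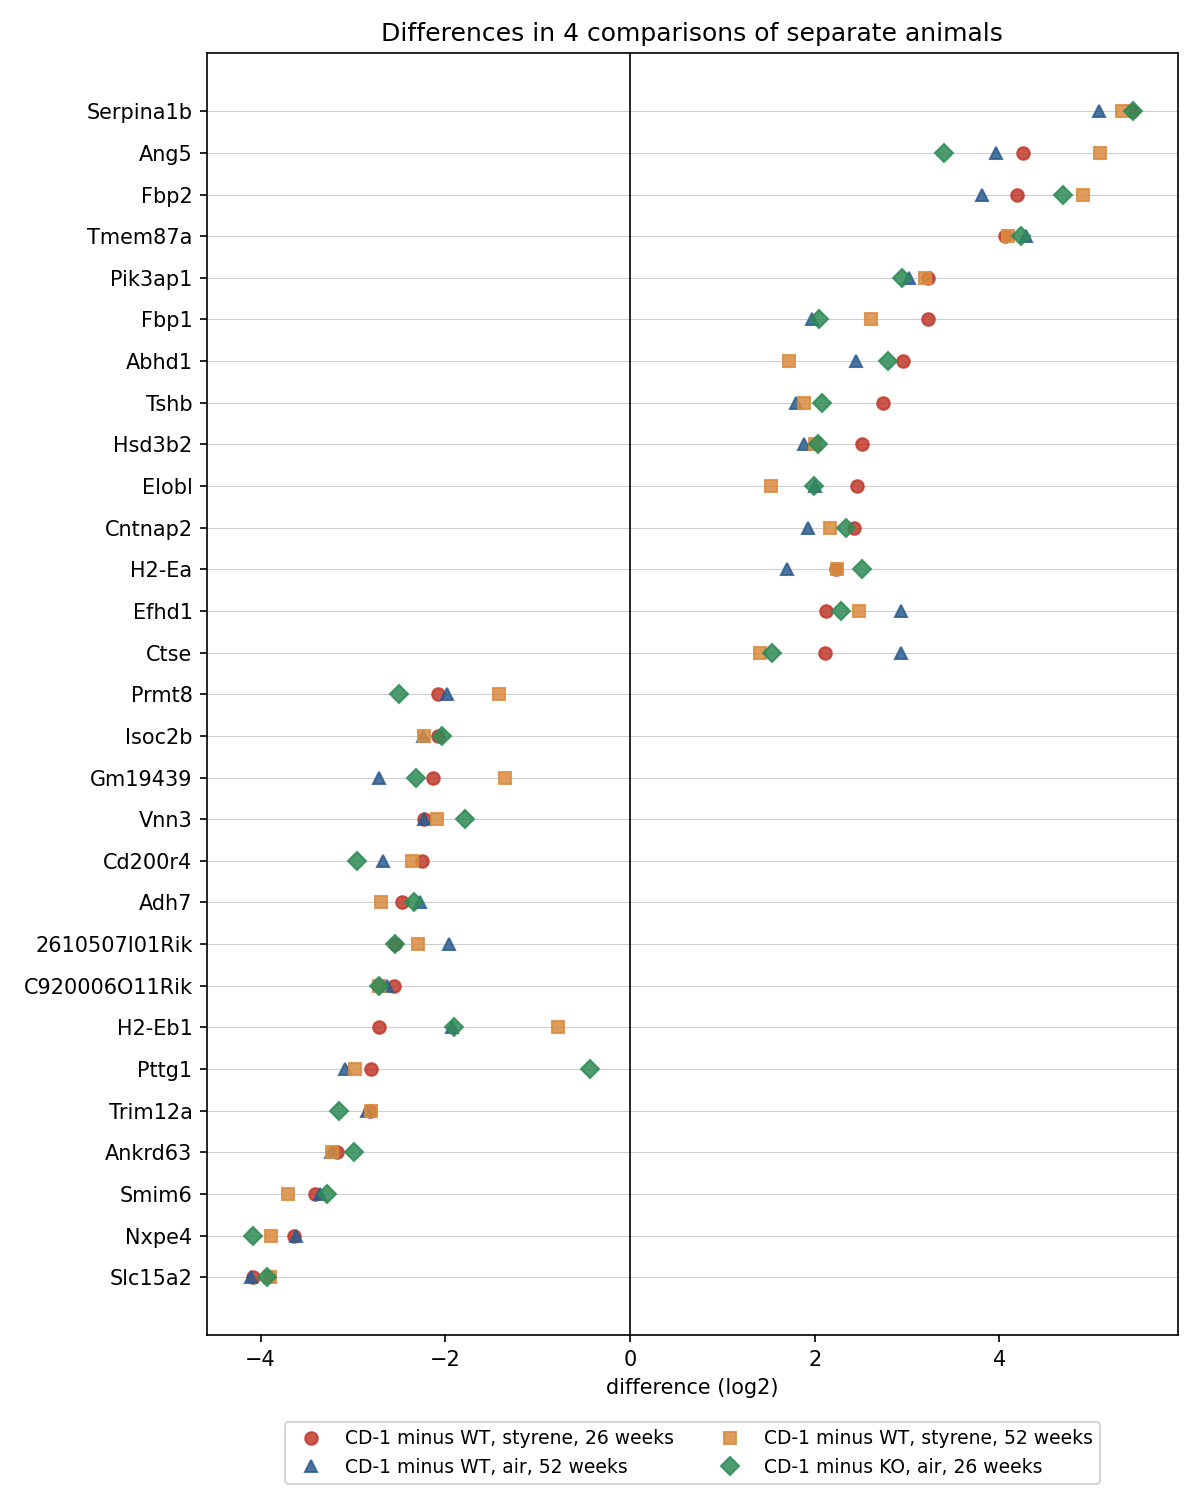
The differences of 29 of the 30 genes are plotted on the log2 scale for CD-1 minus WT with styrene at 26 weeks and for 3 comparisons of other animals. All genes shown keep their sign in all 4, and Pttg1 differs by -0.43 from KO mice but by -2.81 to -3.09 from WT mice.

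Among the 872 genes, 106 (12.2%) did not reach even an unadjusted p of 0.05 in any of the 3 other comparisons. Of the named genes these were Kng1, Serpina3n, Ces1c, Hsd17b7 and P2rx7. The difference between the strain effect with styrene at 26 weeks and in air at 52 weeks was tested directly. No gene passed in limma, 557 had an unadjusted p under 0.05, and age and exposure change together in this test. Its largest departures among the genes described were those of Azgp1 (1.85, unadjusted p = 2.47e-04, adjusted p = 0.424), Kng1 (1.62, unadjusted p = 9.74e-04, adjusted p = 0.557) and Serpind1 (1.30, unadjusted p = 6.36e-04, adjusted p = 0.494). In air at 52 weeks CD-1 minus WT was -3.20 for Azgp1 (adjusted p = 1.05e-11), -0.04 for Kng1 (0.969) and -0.34 for Serpind1 (0.553). Azgp1 was thus lower in CD-1 in both comparisons, by less with styrene at 26 weeks.

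CD-1 animals were also more spread among themselves. The median SD of a gene was 0.226 in CD-1 and 0.155 in WT animals, and 77.9% of genes had the larger SD in CD-1. Without CD-1 replicate 2 the CD-1 median was 0.18 and the share 60.5%, and without replicates 1 and 2 it was 0.164 and 54.0%. These CD-1 SDs come from fewer animals than the WT SDs they are set against. The median of SDs from fewer animals tends to be lower, so these medians and shares are not like for like. In air at 26 weeks the median SD was 0.159 in CD-1 and 0.167 in KO mice. Nppa, atrial natriuretic peptide, had the largest SD in CD-1 (2.80), at 9.92 in replicate 1 and 3.49 to 3.82 in the others, against 3.23 to 6.37 in WT animals, and was named after its values were seen. Ang5, H2-Ea and H2-Eb1 followed, with SDs of 2.75, 2.35 and 2.12 in CD-1 and 0.206, 0.261 and 0.193 in WT animals.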

How the data were processed

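Total RNA of each whole lung was measured on 1 Affymetrix array (HT MG-430 PM). The deposited unit is log2 intensity, made with RMA and Partek according to the submitters' processing notes. Tool versions and the set of arrays normalised jointly are not given in the sources used. Values of the 45037 probe sets lay between 1.74 and 14. Arrays have no read depth, so the number of animals limits precision.

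Groups and replicates came from each sample's labels (the treatment label's 1 or 4 weeks differ from the samples' own 26 weeks), and plates from well labels. Probe sets with 1 gene (28898) were used, and a gene was read from its brightest probe set, by the mean of all arrays. Of 17097 genes, 15695 lay above an array's 30th percentile (2.99 to 3.19) in at least 3 arrays and were tested. A fold is "at least" where the dimmer group's mean lies under that level. The dimmer arrays then enter at no less than that level. limma (lmFit, eBayes, Benjamini-Hochberg, threshold 0.05) fitted 31 group means and a plate 2 term over 150 arrays, and was tested on simulated data. All p-values are from it. For each gene the fit uses a common estimate of spread over all groups, and the simulated data had equal spread in all groups. Where the CD-1 animals were more spread than that estimate, as in Ang5, H2-Ea and H2-Eb1, p-values can be too small.

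Named genes are the 15 highest and 15 lowest called, up to 4 members with the smallest p of each of 36 lists, Cyp2f2 and Serpind1. One of the 15 highest is not reported here. Members and lists were chosen with earlier results of these data known. Alternatives were no filter, a stricter filter (50th percentile in 50% of arrays), the mean of probe sets, no plate term, eBayes with trend and robust, only the arrays compared, only their plate 1 arrays, median centring, a replicate block and each array left out. Leaving out CD-1 replicates 1 and 2 together was chosen after seeing the data. Software was R 4.3.3 with the data.table package (1.17.8) and limma 3.58.1, and for plots matplotlib 3.10.9.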

Additional observations from a re-analysis of the deposited data

Results flagged for a closer look

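For each named gene the highest and the lowest animal of each group of 5 were set against the rest, and a gap of more than 0.71 of the group's range (Dixon's 95% critical value) was marked. Of 328 gene and group sets, 23 were marked, 16 in CD-1 and 7 in WT. Chance marks about 1 in 20 sets, so single marks carry little weight.

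Of the marks in CD-1, 6 fell on replicate 1, namely Nppb, a heart peptide, at 6.51, Fabp4 and Retn, both of adipose tissue, at 11.08 and 7.19, Cyp51 at 7.18, Nxpe4 at 4.15 and Pttg1 at 9.52. Another 5 fell on replicate 2, the array on plate 2, with Tmem87a at 6.32, Isoc2b at 5.34, Abcc4 at 6.08, Ces1c at 3.40 and Fcgbp at 7.51. Replicate 3 was apart in Ang5 at 2.35 and replicate 4 in H2-Ab1 at 10.91. Replicate 5 was apart in 2610507I01Rik at 6.01, Aqp3 at 3.82 and Treml1 at 4.18.

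In WT, replicate 1 was apart in Krt19 at 10.94 and Pttg1 at 12.02, replicate 3 in Serpinf1 at 8.19 and replicate 4 in Me1 at 9.05. Replicate 5 was apart in Gbp7 at 6.14, Muc5b at 6.68 and Srebf2 at 7.07.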

How the results depend on the processing

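Of 164 named genes 77 were called, and 43 of these kept the call under every alternative that gave a value, up to 20 per gene. Among the 30 extreme genes 27 did, the exceptions being H2-Ea, Ctse and H2-Eb1 (adjusted p = 0.112 with only the 10 arrays compared). Over 3251 recomputed values 143 lost a call, 69 gained one and 0 reversed a call. Differences that were not called could change sign, as in Nppb (-0.08 to 1.04) and Cyp2f2 (-0.009 to 0.07). Fitting only the arrays compared lost 12 of the calls, and leaving out CD-1 replicates 1 and 2 lost 15. The count of called genes moved by more than 1.5 times in the main comparison when the plate 1 arrays of the 2 groups were fitted without any other group (1512, 711 higher and 801 lower). In CD-1 styrene minus air (102) it moved with only the arrays compared (34) and without CD-1 replicates 1 and 2 (67). It also moved there without CD-1 styrene replicate 2 alone (61) or replicate 3 alone (67). The cause was not tested. With 1 array left out the main count was 643 to 919. It was 61 to 110 for CD-1 styrene minus air, lowest without CD-1 styrene replicate 2, and 630 to 723 for CD-1 minus KO in air. For CD-1 minus WT at 52 weeks it was 634 to 995 in air and 326 to 631 with styrene, the last lowest without CD-1 styrene replicate 3. The difference of strain effects gave 0 to 2. Same-numbered animals correlated at -0.33 to 0.15, so numbers do not pair them, and with a replicate block the main count was 927. Median centring moved the median of all genes by 0.00168. Signal close to background limits the 69 called genes with a group mean under the filter level.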

Other observations

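Called genes lay beside each other on the chromosome more often than other genes. Of 870 called genes with a position in the GRCm38.p6 gene table, 186 (21.4%) had a called gene directly beside them among the genes tested, against 9.98% of the other genes. In the longest run, Cbx6, D730005E14Rik, Apobec3 and Cbx7, all 4 genes were lower in CD-1.

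Of 353 called genes with a further probe set that passed the filter, 262 had all further probe sets of the same sign, and 201 had one with an unadjusted p under 0.05 in the same direction.

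Some genes outside the named set, chosen after their values were seen, were called in CD-1 minus WT and also in CD-1 styrene minus air at 26 weeks, which share the exposed CD-1 arrays. Afp, alpha-fetoprotein, had group means of 6.54 in exposed CD-1, 5.52 in CD-1 air and 4.89 in exposed WT mice, with differences of 1.54 from WT and 0.92 from air. Fam47e had 5.53 in exposed CD-1, 6.80 in CD-1 air and 7.47 in exposed WT mice, with differences of -1.87 and -1.20. Ly6e, a surface protein induced by interferon, had 10.56 in exposed CD-1, 11.03 in CD-1 air and 11.19 in exposed WT mice, with differences of -0.67 and -0.51.

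Further genes divided the CD-1 animals. D17H6S56E-5 had 4.31, 7.23, 4.98, 7.05 and 4.97 in CD-1 animals, high in replicates 2 and 4 as H2-Ea was, against 7.19 to 7.50 in WT animals (log2 -1.69, adjusted p = 0.01). Galc, a lysosomal galactosidase, had 2.98, 5.38, 4.47, 6.60 and 5.37 in CD-1 animals, against 6.79 to 7.09 in WT animals (log2 -1.96, adjusted p = 0.0036). Both were chosen after their values were seen.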
